A study of Homo sapiens with 2 samples.

Results

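The genes described here are the forkhead (FOX), SRY-box (SOX), Krüppel-like (KLF), GATA and caudal (CDX) transcription factors, followed in HGC-27, a human gastric cancer cell line that the labels call undifferentiated. Members were chosen by symbol alone, as FOXA to FOXS with a number, SOX or KLF with a number, GATA1 to GATA6, and CDX1, CDX2 or CDX4, with values summed per name. This gave 90 genes of the 56544 in the table, made up of 44 FOX, 19 SOX, 18 KLF, 6 GATA and 3 CDX genes. RNA sequencing was done on 1 library of cells given a control peptide and 1 library of cells given the peptide named SOS in the sample titles and SHAP in the series title. Both peptides were delivered in micelles of the carrier PDPA for 48 h to the same line, grown with 10% serum. With a single library on each side, no difference has a replicate check and no test was made. Values are FPKM, which divide the fragments of a gene by its transcript length and the library's depth and so put genes of different transcript length on a common scale. The read depth is not given in the sources used here, so no counting interval can be set on a value. Directions follow the names of the FPKM columns, and would turn if those names were exchanged.

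Each of these families is defined by its DNA-binding domain. FOX proteins carry a winged-helix domain, SOX proteins an HMG box that bends DNA, KLF proteins 3 zinc fingers that bind GC-rich boxes, GATA proteins zinc fingers that read the letters GATA, and CDX proteins a homeodomain. In the digestive tract, FOXA, GATA4 and GATA6 open the endoderm programme, SOX2 marks the foregut and stomach, CDX1 and CDX2 set intestinal identity, KLF4 and KLF5 act in the epithelium, and FOXF1 and FOXF2 belong to the surrounding mesenchyme. Other members act in most dividing cells.

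Fewer members than not were expressed. Of the 90, 43 reached an FPKM of 1 in at least one of the libraries, against 60.6% of all 19443 protein-coding genes. A further 24 members were above 0 but under 1 in both libraries, and 23 were listed at 0 in both. By family, the members at 1 or more were 21 of 44 FOX, 6 of 19 SOX, 12 of 18 KLF, 3 of 6 GATA and 1 of 3 CDX genes. The 43 had a median FPKM of 4.87 in control and 6.41 in SOS, while all protein-coding genes at 1 or more had medians of 12.4 and 12.4. These factors therefore lay below the middle of the expressed coding genes in these libraries.

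The highest members were broadly acting factors. FOXM1, which drives the genes of mitosis, was at 54.1 in the control library and 51.6 in the SOS library. SOX12, of the SOXC group, stood at 31.4 and 36.3. KLF16, a repressor of the group that binds the corepressor SIN3, stood at 24.9 and 29.1. The broadly expressed FOXK2 followed at 22.8 and 22.8. FOXM1 exceeded 90.3% of protein-coding genes in the control library. Reads of a member and of a gene on the opposite strand cannot be told apart here, because strand is not given in the sources used. An annotated gene at 1 or more on the other strand overlapped 9 of the 43 members: FOXD1, FOXK2, FOXM1, FOXN3, FOXP4, GATA2, KLF16, SOX6 and SOX12. Their values are uncertain to that extent. For KLF16 the antisense gene was AC012615.3, at 23.9 and 13.6, and for SOX6 it was C11orf58, at 127 and 90.7.

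**Figure D1:**
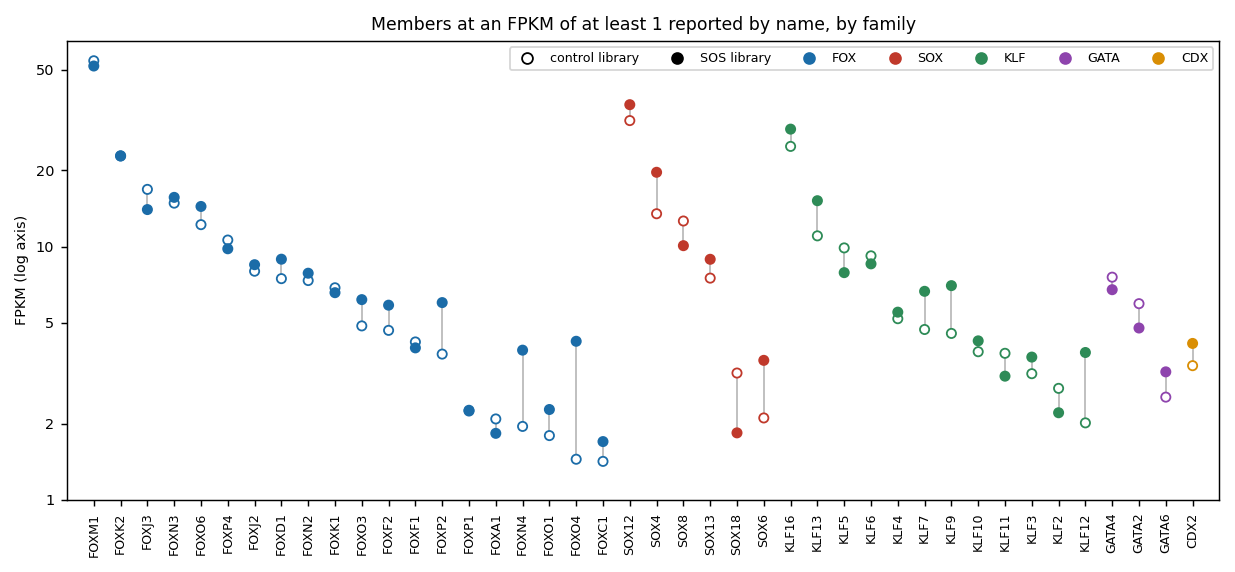
FPKM (log axis) of the expressed members reported by name, grouped by family and ordered by control level. Open circles are the control library and filled circles the SOS library, 1 library each, and a grey line joins the 2 values of a gene. FOXM1 stands highest at 54.1 and 51.6, and the longest upward line is that of FOXO4.

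Factors of the gut endoderm formed a partial set. GATA4, a factor of the stomach and other foregut organs, stood at 7.57 in control and 6.76 in SOS. GATA6, its close relative in the same tissues, stood at 2.55 and 3.20. GATA5, the other member of that trio, was listed at 0 in both libraries. FOXA1, an endoderm pioneer factor, was at 2.09 and 1.83, whereas FOXA2 was at 0.449 and 0.435 and FOXA3 at 0 and 0.148. SOX2, the stomach and foregut factor, was at 0.018 and 0.066, and SOX17, which specifies endoderm, was listed at 0 in both. GATA4, GATA6 and FOXA1 were thus present without SOX2, SOX17 and GATA5. The smallest value above 0 was 0.009 in control and 0.008 in SOS, so SOX2 in control lay near the lower end of what the table shows.

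Among intestinal factors, CDX2 was present and its relatives were near 0. CDX2, which commits gut endoderm to intestine and is turned on in intestinal metaplasia of the stomach, stood at 3.39 in control and 4.15 in SOS. CDX1 was at 0.027 and 0.172, and CDX4 was listed at 0 in both. KLF5, of the dividing gut epithelium, stood at 9.88 and 7.89, and KLF4, of its differentiated cells, at 5.19 and 5.51. Those levels of CDX2, KLF4 and KLF5 stood beside an almost silent gut epithelial programme. Of 18 listed markers of gastric epithelium, none reached an FPKM of 1 in either library and 12 were listed at 0 in both; the highest were CLDN18 at 0.110 and 0.082, MUC6 at 0.009 and 0.066, and CHGA at 0.055 and 0. None of 15 intestinal markers reached 1 either, and 12 were at 0 in both. Those with any value were APOA1 at 0.256 and 0.238, VIL1 at 0.018 and 0.025, and MUC2 at 0.009 and 0. The defining cadherin CDH17 and the mucin MUC5AC were among those at 0.

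The 250 bases before the RefSeq start of CDX2 (chromosome 13, 27969316 to 27969565, minus strand, GRCh38.p14) are shown because CDX2 was the single CDX gene expressed, and because they hold letters read by the other families. Capitals mark the forkhead motif GTAAACA and the motif AGATAA, which GATA factors read, on either strand.
CDX2: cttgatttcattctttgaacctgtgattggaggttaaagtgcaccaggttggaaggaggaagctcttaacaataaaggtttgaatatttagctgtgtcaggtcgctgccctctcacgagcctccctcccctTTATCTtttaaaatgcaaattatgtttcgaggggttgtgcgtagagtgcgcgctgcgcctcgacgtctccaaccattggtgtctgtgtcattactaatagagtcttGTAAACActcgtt
This window held 1 forkhead and 1 GATA motif and no GC box (GGGCGG). In the first listed window of each of 27305 genes, a forkhead motif was found in 2.98% and a GATA motif in 9.37%. A match of letters is a description and not a binding site.

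The general epithelial markers were also low, against the epithelial origin of the line. Of 15 such genes, 2 reached an FPKM of 1: GRHL1 at 1.41 in control and 1.35 in SOS, and the claudin CLDN4 at 1.199 and 0.616. The keratin KRT8 was at 0.797 and 0.353, KRT18 at 0 and 0.066, and the cadherin CDH1 at 0 and 0.016. Of 15 gut endoderm partner factors, 4 reached 1, led by HHEX at 5.07 and 3.75, HNF4G at 1.53 and 2.34, and NKX2-1 at 0.705 and 1.12. HNF4A, the usual partner of GATA and CDX factors in gut epithelium, was at 0.009 and 0. The labels call the line gastric and undifferentiated; the gastric markers were all under 1 here, and GRHL1 and CLDN4 were the only general epithelial ones above it.

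Several mesenchymal forkhead factors were expressed. FOXF2 stood at 4.67 in control and 5.87 in SOS, and FOXF1 at 4.20 and 3.98. FOXC1, of mesenchyme and vessels, was at 1.42 and 1.699. FOXD1, known from the stroma of the developing kidney, was at 7.47 and 8.92. Of 19 mesenchymal partner factors, 9 reached an FPKM of 1, led by TWIST1, a driver of the mesenchymal state, at 158 and 188, PRRX1 at 87.6 and 78.1, and PRRX2 at 45.2 and 29.3. TWIST1 and PRRX1 were above every member in both libraries. BARX1, the factor of stomach mesenchyme, was at 0.064 and 0.181, and NKX3-2 and NKX2-3 were listed at 0. The mesenchymal factors with high levels were thus not those listed for stomach mesenchyme.

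Neither of 2 clusters of neighbouring FOX genes was expressed as a whole. On chromosome 6 (GRCh38, GENCODE release 29), the starts of FOXQ1 (1312440 to 1314748), FOXF2 (1389576 to 1395603) and FOXC1 (1609972 to 1613897) lie within 298 kb. FOXQ1 was at 0 in control and 0.016 in SOS, while FOXF2 and FOXC1 had the values given above. On chromosome 16, the start of FOXF1 (86510527 to 86515418) is followed within 66 kb by the starts of FOXC2 and FOXL1 on the same strand. FOXC2 was at 0.018 and 0, and FOXL1, a marker of the mesenchyme under the gut epithelium in mouse, at 0 and 0.008. The long noncoding RNA FENDRR, which starts beside FOXF1 and runs the other way, was at 13.9 and 14.9, above FOXF1 itself. In each cluster the FOXF gene was the highest of the 3 coding members in both libraries.

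The promoter windows of the chromosome 6 genes are shown because FOXQ1 was near 0 beside 2 expressed neighbours: 250 bases before each RefSeq start, plus strand, GRCh38.p14, at 1311848 to 1312097 for FOXQ1, 1389326 to 1389575 for FOXF2 and 1609665 to 1609914 for FOXC1. Capitals mark the GC box GGGCGG of KLF and SP factors and the GATA motif AGATAA, on either strand.
FOXQ1: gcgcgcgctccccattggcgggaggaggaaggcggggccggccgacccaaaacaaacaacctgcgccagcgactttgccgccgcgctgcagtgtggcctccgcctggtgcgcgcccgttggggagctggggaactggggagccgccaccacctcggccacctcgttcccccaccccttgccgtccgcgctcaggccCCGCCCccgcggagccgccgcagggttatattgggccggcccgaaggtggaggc
FOXF2: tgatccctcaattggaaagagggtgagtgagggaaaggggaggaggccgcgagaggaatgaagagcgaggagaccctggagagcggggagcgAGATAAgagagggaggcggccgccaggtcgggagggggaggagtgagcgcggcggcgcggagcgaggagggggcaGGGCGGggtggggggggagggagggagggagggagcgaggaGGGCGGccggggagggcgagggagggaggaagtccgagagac
FOXC1: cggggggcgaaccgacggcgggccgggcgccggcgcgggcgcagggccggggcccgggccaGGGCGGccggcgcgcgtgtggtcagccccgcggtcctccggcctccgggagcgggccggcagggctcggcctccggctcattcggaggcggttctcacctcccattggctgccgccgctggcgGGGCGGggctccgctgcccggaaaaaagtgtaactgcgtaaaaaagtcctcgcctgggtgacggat
All 3 were rich in G and C, with 74.0% in FOXQ1, 70.8% in FOXF2 and 76.8% in FOXC1. FOXQ1 held 1 GC box and the others 2 each. RefSeq windows matched 65 of the 90 members. A GC box stood in 23 of 34 windows of members at an FPKM of 1 or more (67.6%), in 20 of 31 windows of the others (64.5%) and in 42.3% of the windows of all genes.

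**Figure D2:**
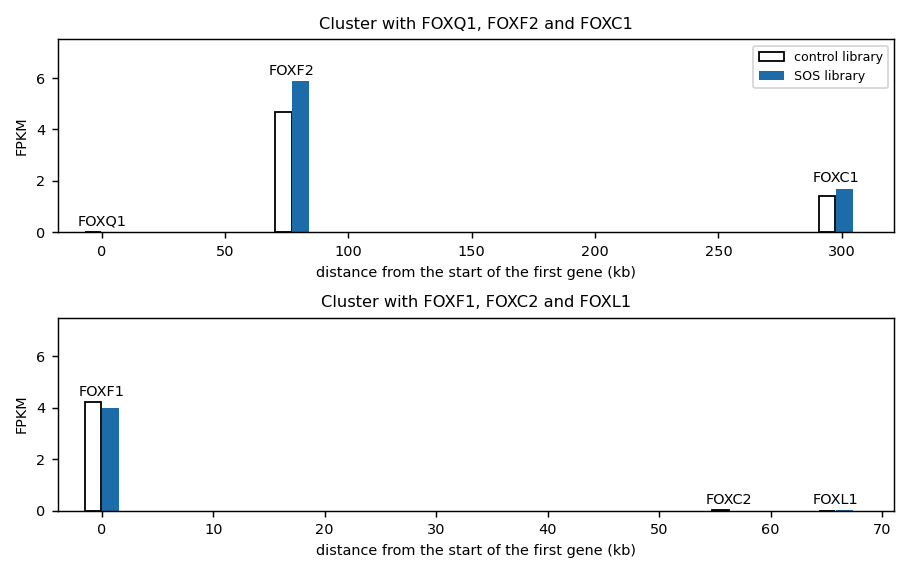
FPKM of the 3 FOX genes in each of 2 clusters (bars from 0; open for the control library, filled for the SOS library, 1 library each) placed by the distance of each start from that of the first gene, in kb. FOXF2 and FOXF1 carry the tallest bars, while FOXQ1, FOXC2 and FOXL1 are at 0.018 or less.

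Members known from neural and neural crest tissue were unevenly present. FOXP2, of neurons and several epithelia, stood at 3.76 in control and 6.01 in SOS. SOX8, of the SOXE group active in neural crest, stood at 12.6 and 10.1, whereas its relative SOX10 was listed at 0 and SOX9 was at 0.192 and 0.690. FOXD3, another neural crest factor, was listed at 0. SOX8 was therefore the only SOXE gene at 1 or more in either library. Of 11 neural crest and glial markers, 5 reached 1: TFAP2A at 27.8 and 31.1, the nerve growth factor receptor NGFR at 7.97 and 10.96, MITF at 4.54 and 5.51, and PAX3 and ERBB3 between 1.996 and 3.76 in both libraries. The glial protein S100B was listed at 0.

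Factors of blood and vessels were present in part. GATA2, of blood progenitors and endothelium, stood at 5.95 in control and 4.77 in SOS, GATA3, of T cells and several epithelia, at 0.714 and 0.484, and GATA1, of red cells, was listed at 0. KLF1, the red cell factor of its family, was also listed at 0. KLF2, of endothelium and lymphocytes, was at 2.76 and 2.21, and SOX18, of vessels and lymphatics, at 3.17 and 1.84. Of 12 blood markers, 2 reached 1: EPOR, the erythropoietin receptor, at 12.2 and 13.9, and the haemoglobin gene HBA1 at 224 and 188. HBA1 shares nearly all its sequence with HBA2 (34.2 and 13.8), so the split between them is uncertain, and TAL1 and HBB were listed at 0. Of 9 endothelial markers, NOS3 alone reached 1, at 15.98 and 15.7, with CDH5 and KDR at 0 and ERG at 0.357 and 0.550.

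Liver and stem cell markers were likewise scarce. None of 7 liver and yolk sac markers reached 1 (SERPINA1 at 0.055 and 0.140 and ALB at 0.027 and 0.033 were those above 0), and of 10 pluripotency markers only LIN28B did, at 2.87 and 2.11. POU5F1 was at 0.165 and 0.238 and SALL4 at 0.037 and 0.025. The SOXB genes, which act with POU5F1 in stem cells and in early neural tissue, were led by SOX2 at the values above, with SOX1, SOX3, SOX14 and SOX21 listed at 0. The other members above 0 but under 1 were SOX15 at 0.980 and 0.829 and FOXB2, FOXD2, FOXD4, FOXE3, FOXH1, FOXJ1, FOXL2, FOXN1, FOXP3, FOXS1 and SOX7, each at 0.430 or less in both libraries. The remaining members listed at 0 in both libraries were FOXB1, FOXE1, FOXI1, FOXI2, FOXI3, FOXR1, FOXR2, KLF15, KLF17, KLF18, SOX5 and SOX30.

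**Figure D3:**
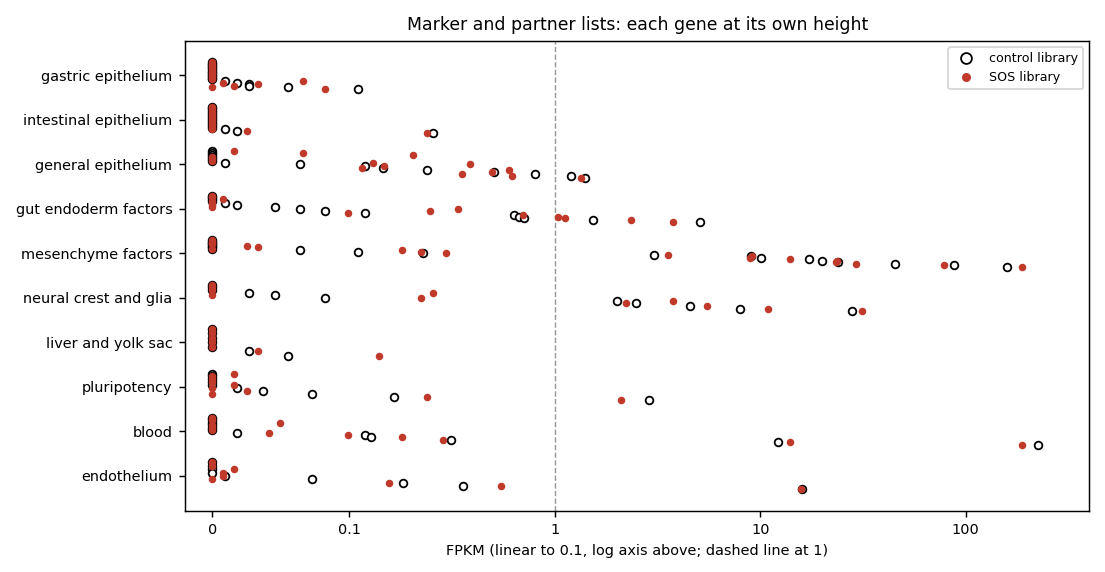
FPKM of every gene in 10 lists of cell type markers and partner factors (axis linear up to 0.1 and logarithmic above; dashed line at an FPKM of 1), with open circles for the control library and red points for the SOS library. All gastric and intestinal markers lie under 1, and the mesenchymal list reaches 158 and 188 at TWIST1.

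The difference between the libraries was measured as log2((SOS FPKM + 1)/(control FPKM + 1)) for the 43 members just counted, and a gene was counted when this reached 1 in size, a 2-fold difference on that scale, which understates the difference of low genes. FOXO4 alone among the 43 was counted as higher, and no member was counted as lower. Of all 14288 genes measured in this way, 3.74% were counted as higher and 1.64% as lower, so the members' counts lie near the background. In a bulk library, more cells of a kind and more RNA per cell cannot be told apart.

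FOXO4, a forkhead factor that insulin signalling keeps out of the nucleus, was at 1.45 in the control library and 4.23 in the SOS library, 2.92-fold higher, with a log2 ratio of 1.10. The authors' deposited table gives a smaller difference. Its log2 ratio runs control over SOS; turned, and with its median offset of 0.15 against FPKM removed, it came to 0.63 for FOXO4, short of the size rule. FOXN4, known from retinal progenitors in mouse, stood at 1.95 and 3.90, 2.0-fold higher, with a log2 ratio of 0.73. Without the pseudocount the log2 ratio of FOXN4 was 1.0, so the pseudocount kept it short of the size rule. By the authors' ratio FOXN4 came to 1.26, past the size rule, which 6.61% of 14074 genes passed upward and 2.2% downward on that measure. The single member past the size rule was therefore FOXO4 by FPKM with the pseudocount and FOXN4 by the authors' ratio.

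The windows before the starts of these 2 genes are FOXO4 on chromosome X, 71095601 to 71095850 (plus strand), and FOXN4 on chromosome 12, 109309285 to 109309534 (minus strand), in GRCh38.p14. Capitals mark the GC box GGGCGG and the SOX motif ACAATG, on either strand.
FOXO4: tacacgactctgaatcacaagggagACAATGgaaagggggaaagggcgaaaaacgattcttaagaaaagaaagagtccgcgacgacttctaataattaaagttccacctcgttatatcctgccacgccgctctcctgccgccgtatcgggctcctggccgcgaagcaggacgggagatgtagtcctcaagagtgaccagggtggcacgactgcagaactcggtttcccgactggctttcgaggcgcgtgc
FOXN4: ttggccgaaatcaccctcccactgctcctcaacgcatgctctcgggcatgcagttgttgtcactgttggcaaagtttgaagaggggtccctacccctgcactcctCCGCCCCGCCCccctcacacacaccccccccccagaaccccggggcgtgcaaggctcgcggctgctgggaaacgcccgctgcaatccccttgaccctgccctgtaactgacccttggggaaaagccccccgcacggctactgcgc
FOXO4 held 1 SOX motif, found in 9.45% of the windows of all genes, and no GC box, and FOXN4 held 2 overlapping GC boxes. The letters ACGTG, the core of the hypoxia element, were in neither window; they stood in 14 of the 65 members' windows (21.5%) and in 18.7% of all. No shared motif of the 6 searched was found in the pair (the others were the forkhead and GATA motifs and CCACCC, which FOXO4 held).

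The direction of small differences leaned upward for the members. A log2 ratio above 0 was found in 29 of the 43, with a median of 0.16, against 45.8% of all measured genes and a median of -0.05. Level matters here, because scarce genes leaned upward in general. Among genes with an FPKM of 5 or more in either library, 18 of 27 members were above 0, against 37.9% of 10015 genes. From 1 to under 5, 11 of 16 members were above 0, against 64.5% of 4273 genes, which is close to the background. The wider gap to all genes was thus in the band of 5 or more. Level was not matched within that band, where the median control FPKM was 7.99 for members and 17.6 for all genes. No test of the lean was made. Scaling to equal sums moved the median of all measured genes from -0.05 to 0.16. The members above 0 were then 23 of 27 at 5 or more, against 58.7% of all, and 14 of 17 from 1 to under 5, against 75.5%.

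**Figure D4:**
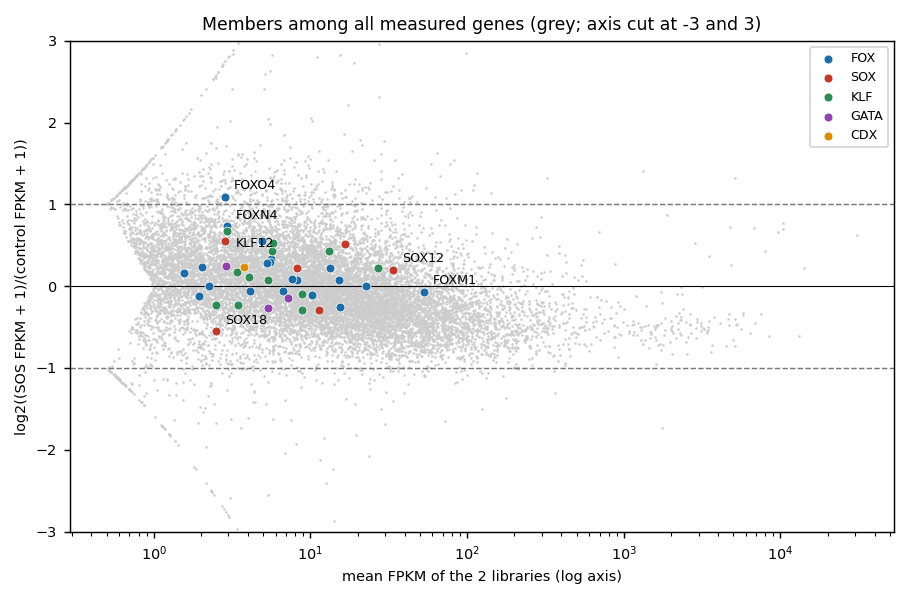
The log2 ratio of SOS to control (pseudocount 1) against the mean FPKM of the 2 libraries (log axis) for all measured genes (grey, axis cut at -3 and 3) and for the 43 members (coloured by family). Dashed lines mark the size rule at -1 and 1. FOXO4 is the one member beyond a line, at 1.10, and SOX18 the lowest, at -0.55.

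All 4 FOXO genes had log2 ratios of at least 0.22, also above 0 under every scaling tried. FOXO3, the broadly expressed FOXO factor of stress resistance, stood at 4.86 in control and 6.17 in SOS, but shares sequence with its copy FOXO3B (3.23 and 3.05), so its value is uncertain. FOXO1, the FOXO factor of glucose production, was at 1.79 and 2.27, and FOXO6, known from brain and liver, at 12.2 and 14.4. Of 22 listed FOXO targets, 16 were measured, 12 were above 0 and 2 were counted as higher, none as lower, with a median of 0.37. Among all measured genes 45.8% were above 0 and 3.74% were counted as higher, and no test of the list was made. Those counted were CCNG2, an atypical cyclin, at 4.27 and 14.9 (log2 ratio 1.60), and SESN3, a stress-induced inhibitor of mTORC1, at 2.26 and 6.13 (1.13). The most abundant were SOD2, the mitochondrial superoxide dismutase, at 29.8 and 16.96, catalase (CAT) at 23.1 and 31.6, and CDKN1B at 20.5 and 28.7. Targets thus stood on both sides, with the defence enzymes SOD2 and CAT in opposite directions.

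Genes that act on FOXO proteins had mostly negative ratios. Of 18 listed, 16 were measured, 14 had a log2 ratio below 0 and none was counted, with a median of -0.33. As deposited, the median of all genes at 5 or more was -0.13. After scaling to equal sums the list's median was -0.13, against 0.15 for the 14288 genes measured before scaling, which include scarcer genes. Of the 16, 15 of which were at 5 or more before scaling, 5 were then above 0, against 58.7% of all genes at 5 or more. No test of the list was made. YWHAE, a 14-3-3 protein that holds phosphorylated FOXO in the cytoplasm, was at 320 and 236, YWHAQ at 233 and 169, and the kinase AKT1 at 178 and 119.

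SOX genes of different groups stood on different sides. SOX4, a SOXC factor of progenitor and tumour cells, stood at 13.5 in control and 19.6 in SOS, with a log2 ratio of 0.51. SOX6, a SOXD factor of cartilage and muscle, stood at 2.11 and 3.56 (0.55), and its relative SOX13 at 7.51 and 8.91 (0.22). SOX8 and SOX18 had negative ratios of -0.30 and -0.55 and stayed below 0 under every scaling tried, SOX18 being the lowest of all members. SOX18 fell short of the size rule, with FPKM of 3.17 and 1.84, a fold of 1.72. The SOXC and SOXD genes measured, 2 in each group, were thus above 0. SOX8 and SOX18 were the only SOXE and SOXF genes measured, so those groups rest on 1 gene each. SOX9, also of SOXE but under the minimum level, went the other way, at 0.192 and 0.690. The value of SOX6 is uncertain because of the overlap with C11orf58 given above.

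Below the minimum level, SOX9 and SOX11 met the authors' rule given next. SOX9, of cartilage and of stem cells in gut glands, was at 0.192 in control and 0.690 in SOS, and SOX11, a SOXC factor, at 0.385 and 0.919. By the authors' deposited table, the members FOXN4, SOX11 and SOX9 had a log2 ratio of at least 1 in size with an adjusted p under 0.001, a rule met by 1.93% of all genes and by 4.52% of the 24156 genes above 0 in either library. The sources used here do not name the test for that p, and it compares the 2 libraries rather than the treatments. Of 11 cartilage genes known as targets of SOX9, 6 were measured, with 4 above 0 and 1 counted. Over all measured genes, 45.8% were above 0 and 3.74% were counted as higher, and no test of the list was made. COL11A1 was counted as higher at 30.1 and 86.7 (log2 ratio 1.496), COL9A3 stood at 36.7 and 62.5, and HAPLN1 at 38.9 and 44.0. The 2 below 0 were COL9A2, at 5.60 and 3.09 (log2 ratio -0.69), and COL11A2, with a log2 ratio of -0.15. COL2A1 and ACAN, the classical pair, were at 0.018 and 0.115 and at 0 and 0. The cartilage genes with high levels were thus not the defining ones.

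KLF genes are taken by group, whose ranges of log2 ratio overlapped (-0.23 to 0.53 in the SIN3 group and -0.29 to 0.42 among activators). Of the group that binds the corepressor CtBP, KLF12 was at 2.01 and 3.82 (1.90-fold), and KLF3 at 3.15 and 3.66, while KLF8 was at 0.009 and 0.131. Of the SIN3 group, KLF9, induced by steroid and thyroid hormones, stood at 4.54 and 7.01 (1.54-fold), and KLF13 at 11.02 and 15.2. KLF10, induced by TGF-beta, was at 3.85 and 4.24, and KLF11, its close relative, at 3.79 and 3.08. KLF16 completed that group, and KLF14 was at 0.009 and 0.025. In these groups, KLF11 was the only measured one below 0.

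Among activators, KLF7, of neurons and fat cells, stood at 4.71 and 6.66 (1.41-fold), and KLF6, an early response gene, at 9.19 and 8.55. KLF5 and KLF2 had log2 ratios of -0.29 and -0.23 and stayed below 0 under every scaling tried, and KLF4 was at 0.07. Pseudogenes of KLF2 carried values of their own, KLF2P1 at 0.870 and 2.55 and KLF2P4 at 1.37 and 4.24, so the level of KLF2 is uncertain. Of 13 KLF partners and SP factors, 11 were measured and none was counted, with a median of -0.12. After scaling to equal sums that median turned to 0.07, against 0.15 for the 14288 genes measured before scaling. CTBP1 was at 81.6 and 73.4, CTBP2 at 31.0 and 29.6, and SIN3A at 28.5 and 24.1. Of 8 targets of KLF2 and KLF4 in endothelium, 4 were measured and none was counted, with NQO1 at 216 and 167, NFE2L2 at 28.3 and 27.4, and NOS3 as above.

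Of the remaining FOX members at 5 or more, FOXP2 had the largest log2 ratio, 0.56 (1.60-fold), and the others named here differed little. FOXP4 stood at 10.6 and 9.80, and FOXP1, under 5, at 2.24 and 2.26. FOXP4-AS1, on the other strand of FOXP4, was at 7.65 in control and 4.06 in SOS and came to -1.07 by the authors' ratio. FOXJ3 stood at 16.8 and 13.998, its relative FOXJ2 at 7.99 and 8.48, FOXN3 at 14.8 and 15.6, FOXN2 at 7.34 and 7.85, and FOXK1 at 6.88 and 6.58. The log2 ratios of these 5 lay between -0.25 for FOXJ3 and 0.08. Other noncoding partners at 1 or more were FOXN3-AS1 at 5.48 and 4.28, GATA2-AS1 at 3.93 and 3.83, FOXD2-AS1 at 2.12 and 1.98, and FOXD1-AS1 at 1.36 and 1.72. Of 20 such RNAs, 6 reached 1 and none was counted.

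The targets of FOXM1 spread in both directions. All 17 were measured, 7 had a log2 ratio above 0 and none was counted, with a median of -0.03. Among all genes at 5 or more, as these were, 37.9% were above 0. After scaling to equal sums the targets' median turned to 0.19, against 0.15 for the 14288 genes measured before scaling, which include scarcer genes. Of the 17 targets, 13 were then above 0, against 58.7% of all genes at 5 or more. CKS1B, a cofactor of cell cycle kinases, was at 329 in control and 246 in SOS, CDC20 at 272 and 187, and CCNB1, the mitotic cyclin, at 186 and 168. The largest upward ratios, picked out after the values were seen, were those of CENPF, a kinetochore protein, at 29.3 and 55.0, and TOP2A, a topoisomerase of dividing cells, at 61.2 and 110. The largest downward ratio, picked out in the same way, was that of CENPB at 42.4 and 23.1 (log2 ratio -0.85). FOXM1 itself had a log2 ratio of -0.07, which turned to 0.15 under the same scaling. GATA4 and GATA2 had ratios of -0.14 and -0.27 and GATA6 and CDX2 ratios of 0.25 and 0.23; GATA4 also turned, while the others kept their sign under every scaling tried. Lineage factors of the gut thus showed no common direction between the libraries.

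The 2 measures of the difference, which come from the same 2 libraries, were set side by side. The authors' ratio with its offset removed lay within 0.3 of the plain log2 FPKM ratio for all but 2 of the 43 members. That limit is wider than the members' median log2 ratio of 0.16, so it is a loose one for most of them. FOXO4 lay 0.92 below its FPKM ratio, and FOXK2 lay 0.45 above, with FPKM of 22.8 and 22.8. For these 2 genes the size of the difference rests most on which measure is read, but others moved too. KLF5 was at -0.32 by the FPKM ratio and -0.07 by the authors' ratio, and FOXJ2 at 0.09 and 0.34. KLF6 changed sign, at -0.11 and 0.02. FOXN4, at 0.73 with the pseudocount and 1.0 without it, came to 1.26 by the authors' ratio, as given above.

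**Figure D5:**
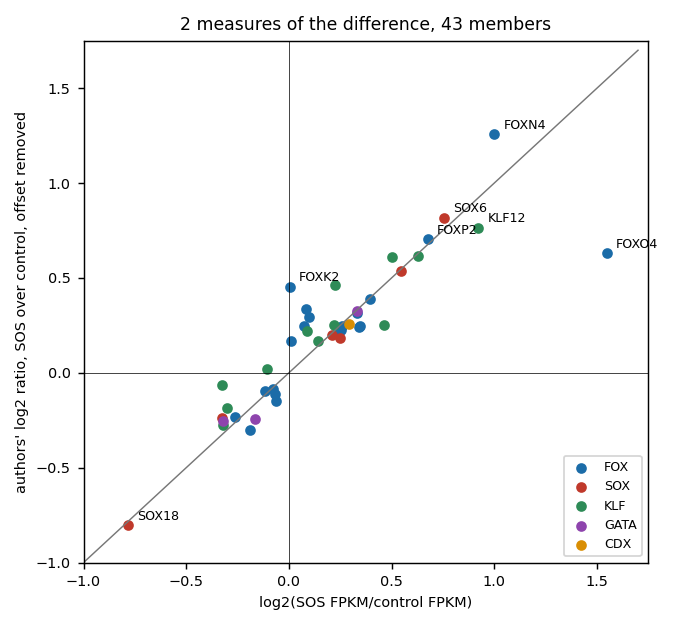
The authors' log2 ratio, put as SOS over control and less its offset, against the log2 ratio of the FPKM (no pseudocount) for the 43 members, coloured by family; the diagonal marks equality. FOXO4 lies 0.92 below the diagonal and FOXK2 0.45 above it, and FOXN4 is the one member above 1 on the vertical axis.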

How the data were processed

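RNA was extracted with TRIZOL and sequenced on an Illumina instrument, per the labels' protocols. The tools named in the submitters' processing notes are RSEM, HISAT2 and Cufflinks, with the build GRCh38.p10, and neither a version nor a role is stated for any. The deposited table holds, per the file headers, FPKM of the 2 libraries, with a log2 ratio, a p-value and its adjusted form computed by the authors. Of the values above 0 and under 2, 99.3% in control and 100% in SOS were whole multiples (within 0.00055) of 1 small step. A step was not taken as a read. The 5th percentile of the control values above 0 was 10.5 steps for transcripts under 300 bases and 1 step from 4800 bases, as for values divided by length. The ratio of steps equalled the authors' ratio (within 0.001) for 6.90% of 3074 genes under 0.3 in both libraries.

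Of 58645 entries, 412 without a name and 27 with names turned into dates were left out; the rest were summed per name, and no member stood on more than 1 entry. Ratios used a pseudocount of 1, a minimum FPKM of 1 in one library or the other and a size rule of 1 on the log2 scale. The authors' ratio was turned to SOS over control and its median offset of 0.15 over 8991 genes removed. Positions come from GENCODE release 29, promoter sequences from RefSeq on GRCh38.p14, taking the first start listed. The members and the 16 gene lists were chosen with earlier results of these data known. Named are members at an FPKM of 5 or more, members past the size rule, a fixed set of lineage factors, and of each list the 3 most abundant genes and those past the size rule; further genes were added where singled out after their values were seen. Some genes that this rule covers are counted but not reported here by name. The code for the ratio was checked on control values multiplied by known factors, without noise and only at an FPKM of 5 or more. That check covers the calculation and not the reliability of the differences. Alternatives changed pseudocount, minimum, scaling, entry, measure and size. Python 3.11.15, numpy 2.4.6, pandas 2.3.3 and matplotlib 3.10.9 were used.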

Additional observations from a re-analysis of the deposited data

How the results depend on the processing

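The count of members higher in SOS was 1 as reported and was 0 with a pseudocount of 5, 0 with a minimum FPKM of 5 (which leaves FOXO4 out) and 7 with a size rule of 0.5. In the other settings it was 1, FOXO4 each time except by the authors' ratio, where it was FOXN4. The count lower was 0 except with a size rule of 0.5, where it was 1 (SOX18). The members' median log2 ratio of 0.16 became 0.21 with a pseudocount of 0.1, 0.0637 with 5, 0.0710 with no minimum, 0.0849 with a minimum of 5, 0.33 after scaling to equal sums, 0.19 with the median of all genes set to 0, and 0.24 by the authors' ratio; taking the highest entry per name left it at 0.16. Members at or above the level limit numbered 43 at 1, 47 at 0.5 and 27 at 5. Of the 43 measured members, 29 stayed above 0 and 7 below 0 in all 10 settings, and 7 changed sign (FOXA1, FOXF1, FOXK1, FOXM1, FOXP4, GATA4 and KLF6). The cause of these shifts was not tested. No paired analysis was possible because each group has 1 library. Depth is not stated, and members near the smallest table value are the least certain.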
